A study of Mus musculus with 41 samples.

Results

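Integrins and leukocyte adhesion genes form a group of 36 genes that was chosen by gene symbol: 24 integrin chains, 7 adhesion molecules of the immunoglobulin type, the selectin ligand gene Selplg, Cd44, Cd47 and the integrin activators Tln1 and Fermt3. All 36 symbols were found among the 55453 genes of the deposited tables. The irradiated groups came from MC38-luc tumours, a mouse colon adenocarcinoma line with a luciferase gene, grown in the rectum of female C57BL6 mice and given 5 Gy per fraction in 5 daily fractions on days 9 to 13 after implantation. The untreated groups came from the same tumour model without irradiation, and all tumours were taken on day 14. CD45+ CD11b+ cells were sorted by surface protein into tumour-associated macrophages (TAM; negative for Ly6C and Ly6G and F480+, the macrophage marker encoded by Adgre1), inflammatory monocytes (Ly6C+ but Ly6G-) and granulocytes (positive for Ly6C and Ly6G). The 41 RNA-seq libraries comprised 10 irradiated and 5 untreated TAM libraries, 9 irradiated and 5 untreated libraries of inflammatory monocytes, and 7 irradiated and 5 untreated granulocyte libraries, from 15 numbered tumours.

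Integrins are membrane receptors of 1 alpha and 1 beta chain that hold cells to matrix and to other cells. They switch from a bent, weakly binding form to an extended, strongly binding form when talin and kindlin bind the tail of the beta chain inside the cell. Leukocytes leave the blood by rolling on selectins through PSGL-1, arresting on ICAM and VCAM molecules through beta2 and alpha4 integrins, and crossing the endothelium with the help of PECAM and JAM proteins. CD11b, the product of Itgam, was itself part of the sort, so cells of every group had to carry it on the surface.

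For each subset, the authors' deposited table compares irradiated with untreated cells. It holds for each gene a mean normalised count, a log2 fold change, the Wald statistic of the effect over its standard error, and p-values before and after adjustment. No value of a single library was used here; the read depth is thus unknown and no SD can be given, and the Wald statistic stands for the error of an effect. A gene is called higher or lower where its adjusted p-value is under 0.05, with the direction of the Wald statistic. Every subset's table repeats a common mean count, which does not show the level in 1 subset or group, and the labelled cell types could not be checked against their markers. In these sorted pools a shift in the mix of cells inside a gate and a shift in RNA per cell cannot be told apart.

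Upstream sequences of 5 members the results turn on are shown first, each the 250 bases before the gene's start. They are Itgam and Itgax, which are neighbours on chromosome 7, Jaml, which had the highest Wald statistic of the group, Cd47, which was higher in all 3 subsets, and Cd44, which was called in TAM and granulocytes with opposite signs. RefSeq sequences of the build GRCm38.p6 were used, an earlier build than the GRCm39 of the submitters' processing notes. An upstream sequence was matched by symbol for 23 of the 36 members. Capitals mark matches on either strand to the PU.1 core GAGGAA in Itgam and Cd44, to the GC box GGGCGG in Itgam and Cd47, to the AP-1 motif TGANTCA in Itgax, and to the TATA box TATAAA and the interferon-stimulated element (GAAA, any 2 bases, then GAAA) in Jaml.
Itgam, chr7:128062390-128062639, plus strand: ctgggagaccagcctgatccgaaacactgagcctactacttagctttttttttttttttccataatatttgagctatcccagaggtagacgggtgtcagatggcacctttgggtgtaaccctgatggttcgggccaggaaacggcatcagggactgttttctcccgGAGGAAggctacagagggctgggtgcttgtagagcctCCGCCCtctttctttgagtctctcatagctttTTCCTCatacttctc
Itgax, chr7:128129300-128129549, plus strand: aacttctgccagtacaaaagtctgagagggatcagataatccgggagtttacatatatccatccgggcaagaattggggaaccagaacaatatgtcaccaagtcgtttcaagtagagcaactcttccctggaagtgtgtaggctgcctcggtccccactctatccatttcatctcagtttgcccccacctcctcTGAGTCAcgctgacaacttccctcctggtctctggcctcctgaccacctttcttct
Jaml, chr9:45078933-45079182, plus strand: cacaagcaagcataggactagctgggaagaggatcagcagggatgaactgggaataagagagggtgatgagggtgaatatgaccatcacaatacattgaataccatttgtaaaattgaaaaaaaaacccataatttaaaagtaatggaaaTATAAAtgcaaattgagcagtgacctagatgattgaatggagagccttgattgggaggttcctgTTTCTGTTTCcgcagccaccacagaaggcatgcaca
Cd47, chr16:49855404-49855653, plus strand: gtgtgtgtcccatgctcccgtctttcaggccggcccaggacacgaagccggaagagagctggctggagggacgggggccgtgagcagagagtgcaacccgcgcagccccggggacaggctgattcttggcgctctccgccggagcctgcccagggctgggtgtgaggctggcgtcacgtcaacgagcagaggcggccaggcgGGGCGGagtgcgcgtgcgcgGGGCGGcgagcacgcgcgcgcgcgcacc
Cd44, chr2:102901666-102901915, minus strand: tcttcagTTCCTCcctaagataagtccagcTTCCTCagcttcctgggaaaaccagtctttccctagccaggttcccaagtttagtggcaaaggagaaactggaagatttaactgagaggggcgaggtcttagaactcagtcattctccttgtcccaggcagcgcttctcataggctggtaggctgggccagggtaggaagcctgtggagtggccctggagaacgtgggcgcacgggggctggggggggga

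The PU.1 core was found in 8 of the 23 member promoters and in 23.1% of all 27025 promoters of the same length. The GC box was found in 9 of 23 and in 32.9% of all promoters. For the AP-1 motif the numbers were 2 of 23 and 6.9%, for the interferon-stimulated element 3 of 23 and 3.0%, for the TATA box 1 of 23 and 13.0%, and for the kappaB motif 0 of 23 and 3.8%. A base may belong to matches of more than 1 motif. A match is a description of the letters and no evidence of binding.

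Over the libraries of all subsets, members spanned a wide range of levels. Divided by the merged exon length of GENCODE M21, the mean normalised count of the authors' deposited table was 13023 per kb for Itgb2, the common beta2 chain of leukocytes. Selplg followed at 3928 per kb, Cd44 at 3625 per kb and Itgb1, the beta chain with the most alpha partners, at 2744 per kb. Itgb5, Cd47, Itgam, Jaml, Fermt3, Itgb7, Icam1, Tln1, Itga5, F11r and Itgal lay between 2286 and 1139 per kb. At the low end, Itga2, Itgb8, Itgad, Itga7 and Itgb6 had under 1 count per kb, and the last of these, a chain of epithelial integrins, had 0.0539. Without library values, the order of neighbours on this scale has no error attached.

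**Figure D1:**
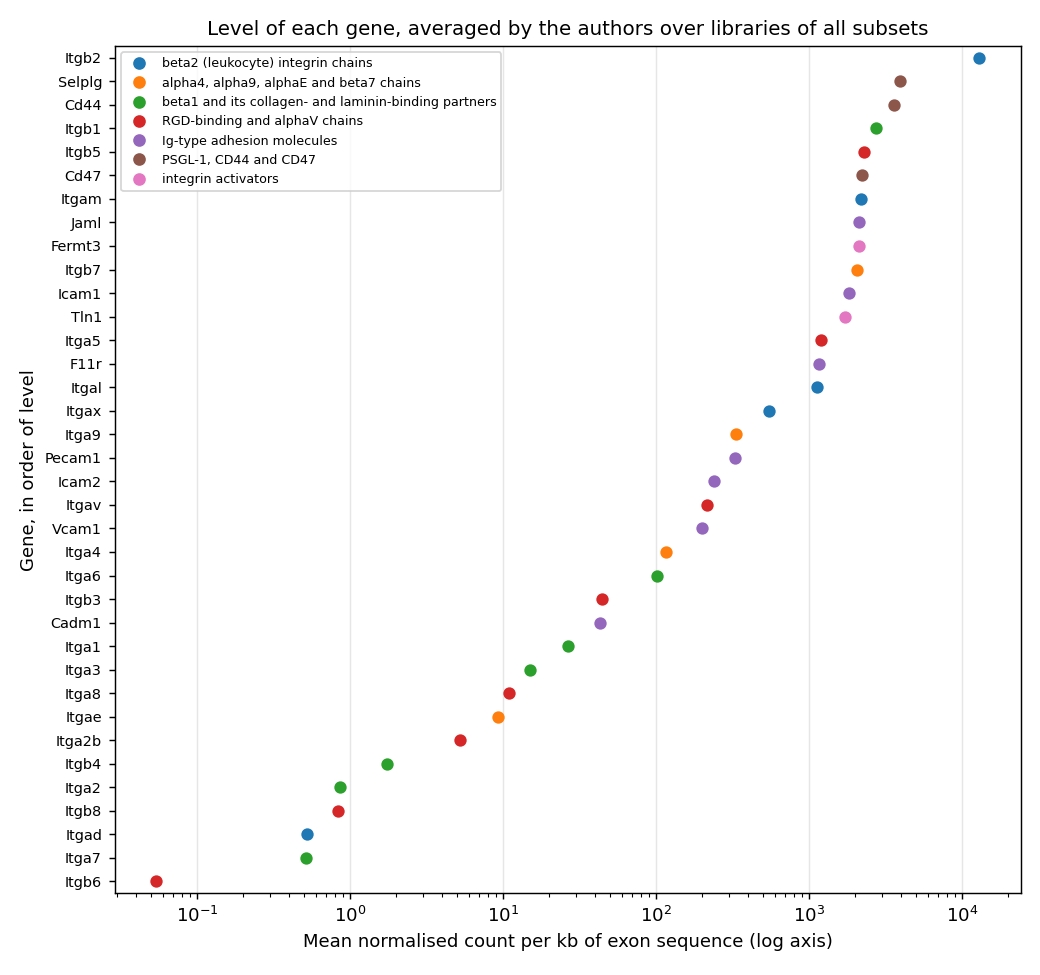
Each point is the authors' mean normalised count of a gene per kb of merged exon length, on a log axis, with genes in order of level from top to bottom and coloured by role. Itgb2 lies apart at 13023 per kb, and Itgb6 is lowest at 0.0539 per kb.

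Some of these genes share exon sequence with another annotated gene, and how such reads were counted is not stated. The largest share was 68.7% of the Itgam exon bases, with Gm49368 on the same strand. That gene had a mean normalised count of 7.76 per the authors' deposited table, against 11003 for Itgam. The counts of Jaml and Icam1 overlap genes on the opposite strand over 12.8% and 11.7% of their exon bases, and those genes had mean counts of 3.04 (Gm10684) and 1.61 (Gm47079) per the authors' deposited table.

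Most members with a call were higher in TAM of irradiated tumours. In TAM, 34 of the 36 members had an adjusted p-value; 12 were higher, or 35.3% of those tested, where 13.9% of all genes tested were called higher. Another 5 were lower (14.7%), where 12.5% of all genes tested were called lower. The median log2 fold change was 0.34 over the tested members and 0.03 over all genes tested, and 28 of 34 members had a positive Wald statistic. In inflammatory monocytes 3 of 32 members were higher (9.38%) and 1 was lower (3.12%), against 4.13% higher and 1.77% lower among all genes tested. In granulocytes 5 of 34 were higher (14.7%) and 6 were lower (17.6%), against 7.32% and 9.90% of all genes tested. Median log2 fold changes of the tested members were -0.07 in inflammatory monocytes and -0.04 in granulocytes, beside 0.02 and -0.03 over all genes tested. Over the 3 subsets, 20 of the 34 members tested at least once were called in at least 1 subset, beside 6060 of 16851 among all genes tested.

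Well-counted genes are called more often, and many members are well counted. Above a minimum mean count of 1000, a limit chosen after seeing the data, 11 of 21 members were higher in TAM (52.4%), beside 31.2% of all such genes, and 1 was lower (4.76%), beside 14.3%. With the same limit, 3 of 21 members were higher in inflammatory monocytes (14.3%), beside 6.06% of all such genes, and none was lower, beside 2.93%. In granulocytes 5 of 21 were higher (23.8%), beside 12.8%, and 3 were lower (14.3%), beside 13.5%. The shares of lower members in TAM over all counts and in granulocytes among well-counted genes were thus close to those of all genes.

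**Figure D2:**
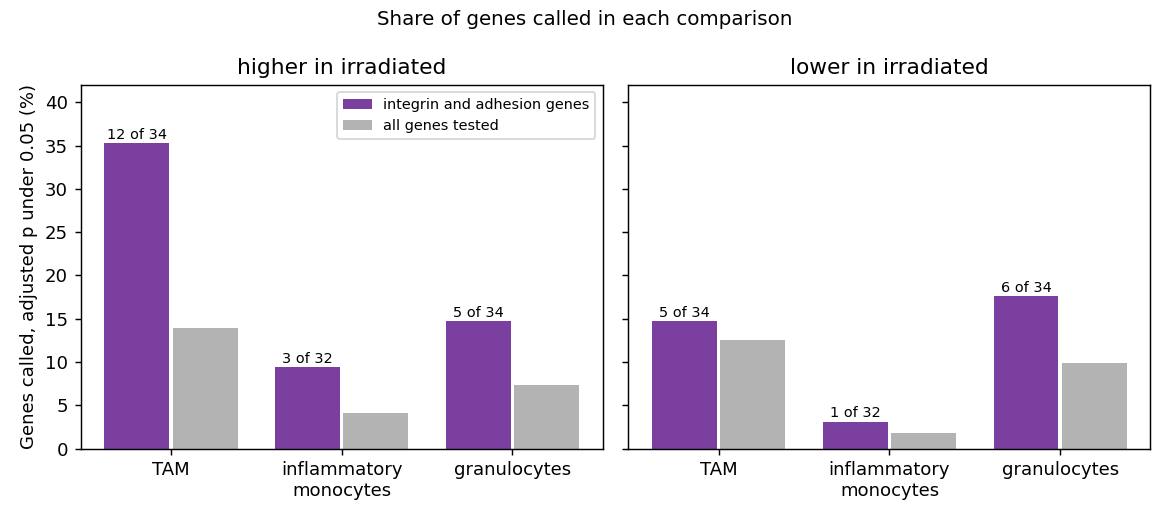
Bars give the percent of tested genes called higher (left) or lower (right) in irradiated against untreated cells of each subset, for the integrin and adhesion genes (purple, with their counts) and for all genes tested (grey). The widest gap is among genes higher in TAM, 35.3% of members and 13.9% of all genes.

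**Figure D3:**
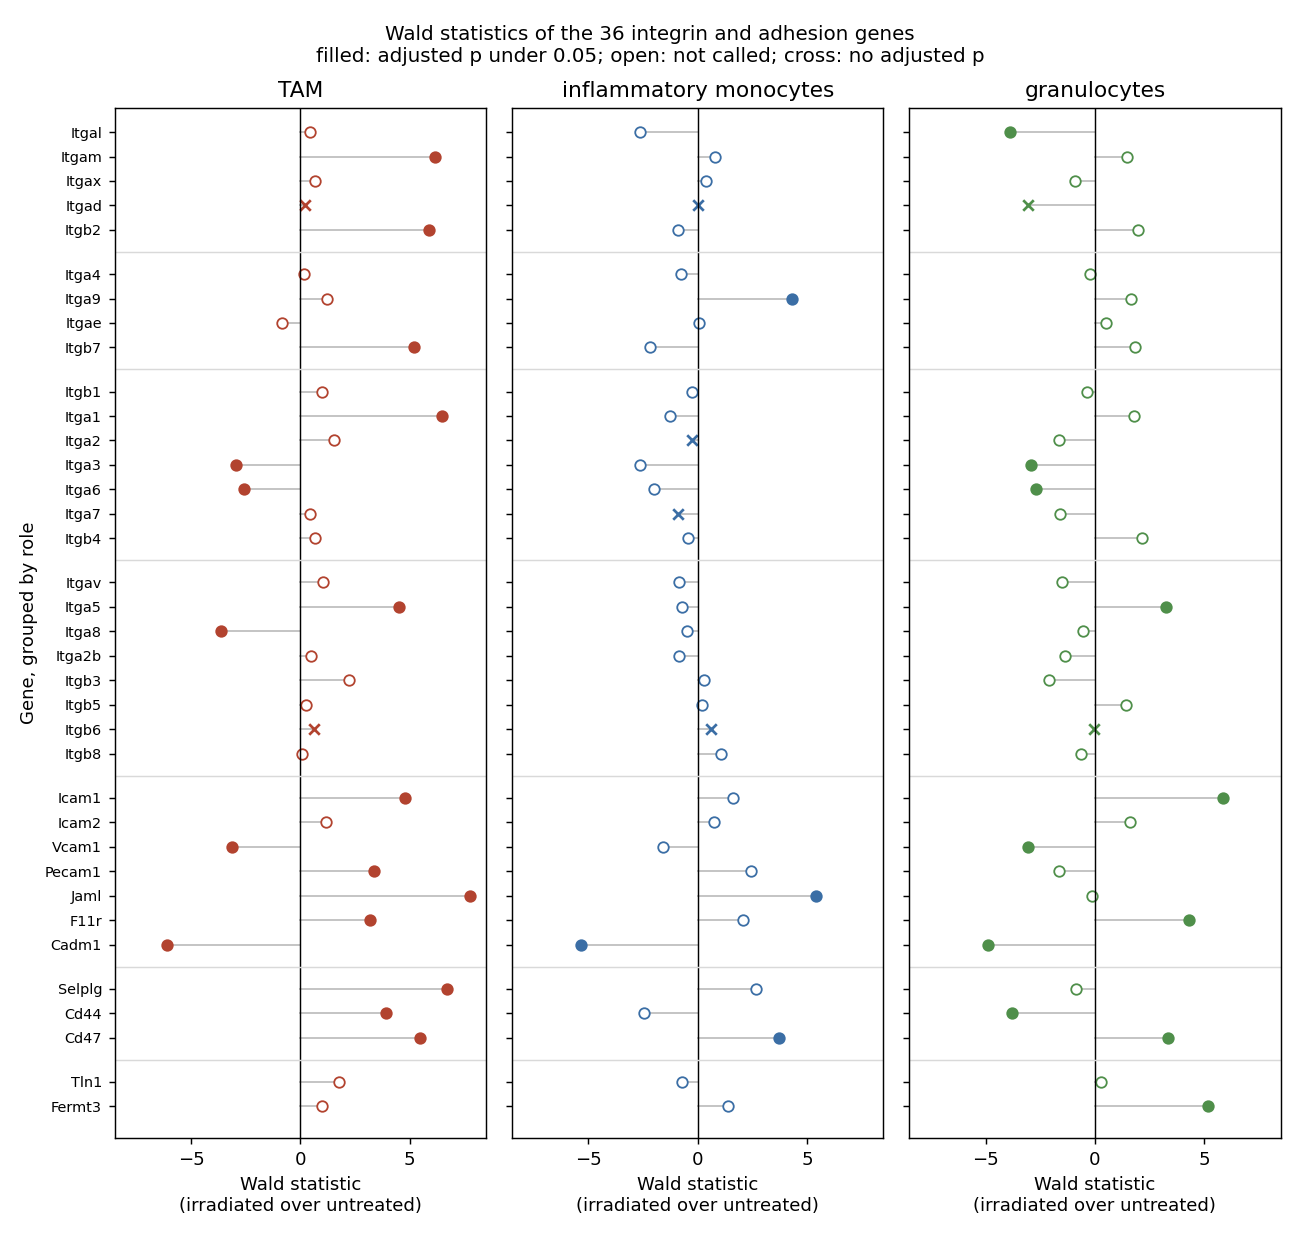
Wald statistics of irradiated over untreated cells are shown for the 36 genes, grouped by role in the order of the text, in 1 panel per subset. Filled points were called, open points were not, and crosses have no adjusted p-value; Jaml in TAM reaches 7.75 and Cadm1 in TAM -6.10.

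Among the beta2 integrins, Itgam and Itgb2, which encode both chains of the complement receptor Mac-1, rose in TAM. The authors' deposited table gives Itgam a log2 fold change of 1.02 in TAM (Wald statistic 6.18, adjusted p = 3.4e-08). For Itgb2 in TAM it was 0.70 per the authors' deposited table (Wald statistic 5.87, adjusted p = 1.8e-07). Neither was called in the other subsets. The authors' deposited table has log2 fold changes of 0.13 in inflammatory monocytes and 0.27 in granulocytes for Itgam, and of -0.11 and 0.25 in the same order for Itgb2.

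The other alpha partners of beta2 were not called in TAM, and no test compared them with Itgam. Itgax, which encodes CD11c of macrophages and dendritic cells and lies next to Itgam, had log2 fold changes of 0.24 in TAM, 0.15 among inflammatory monocytes and -0.36 in granulocytes per the authors' deposited table, and none was called. Itgal, the alpha chain of LFA-1, which binds ICAM molecules, fell in granulocytes, with a log2 fold change of -0.73 per the authors' deposited table (Wald statistic -3.90, adjusted p = 0.0020). In TAM it was 0.07 and in inflammatory monocytes -0.47 (adjusted p = 0.81 and 0.096) per the authors' deposited table. Itgad, the next gene after Itgax, had a mean count of only 2.37 and no adjusted p-value in any subset. Its unadjusted p in granulocytes was 0.0021 beside a log2 fold change of -3.50 per the authors' deposited table.

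In the family of alpha4, alpha9 and beta7 chains, the called genes differed by subset. Itgb7, the beta chain that pairs with alpha4 to bind the gut addressin MAdCAM-1 and with alphaE to bind E-cadherin, rose in TAM, with a log2 fold change of 1.24 per the authors' deposited table (Wald statistic 5.21, adjusted p = 4.6e-06). In inflammatory monocytes its log2 fold change was -0.52 and in granulocytes 0.47 per the authors' deposited table, and neither was called (adjusted p = 0.19 and 0.20). Its alpha partners were not called in any subset. Itga4 had log2 fold changes of 0.03, -0.15 and -0.04 in TAM, inflammatory monocytes and granulocytes per the authors' deposited table, at a mean count of 1619. Itgae stood at a mean count of 42.7, with log2 fold changes of -0.48 in TAM and 0.33 in granulocytes per the authors' deposited table.

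Itga9, whose product pairs with beta1 and binds tenascin-C, osteopontin and VCAM-1, was the only one of the 24 member chains called higher in inflammatory monocytes. The authors' deposited table lists a log2 fold change of 1.30 there (Wald statistic 4.33, adjusted p = 0.0013). The values in TAM and granulocytes were 0.39 and 0.51 per the authors' deposited table (adjusted p = 0.40 and 0.27).

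Itgb1, which pairs with most matrix-binding alpha chains, was not called in any subset, with log2 fold changes of 0.10 in TAM, -0.03 among inflammatory monocytes and -0.04 in granulocytes per the authors' deposited table. Its alpha partners moved in both directions in TAM. Itga1, a collagen-binding chain, rose, with a log2 fold change of 1.84 per the authors' deposited table (Wald statistic 6.47, adjusted p = 6.9e-09). Itga1 was not called in inflammatory monocytes (-0.33) or granulocytes (0.55) per the authors' deposited table. Itga2, the other collagen-binding chain of the group and the neighbour of Itga1 on chromosome 13, had a mean count of 6.15 and was not called. In inflammatory monocytes Itga2 had no adjusted p-value.

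The laminin-binding chains Itga3 and Itga6 were lower in TAM and in granulocytes. For Itga3 the log2 fold changes (the authors' deposited table) were -1.59 in TAM (Wald statistic -2.94, adjusted p = 0.017) and -1.64 in granulocytes (Wald statistic -2.93, adjusted p = 0.026). The value in inflammatory monocytes, -1.40, was not called (adjusted p = 0.096) per the authors' deposited table. Itga6 had -0.81 in TAM and -0.94 in granulocytes per the authors' deposited table (adjusted p = 0.040 and 0.042), and -0.67 in inflammatory monocytes (adjusted p = 0.24). These calls lay near the threshold. With p-values adjusted over every gene, Itga6 in TAM and Itga3 and Itga6 in granulocytes were no longer called (adjusted p = 0.075, 0.052 and 0.083). Itga7 and Itgb4, of which Itgb4 is the partner of alpha6 in epithelial hemidesmosomes, had mean counts of 4.19 and 12.2 and were not called in any subset. Itga7 had no adjusted p-value in inflammatory monocytes.

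Among chains that bind RGD peptides or pair with alphaV, the fibronectin receptor chain Itga5 rose in TAM and in granulocytes. The authors' deposited table gives 0.89 in TAM (Wald statistic 4.51, adjusted p = 9.6e-05) and 0.69 in granulocytes (Wald statistic 3.24, adjusted p = 0.012), as log2 fold changes. In inflammatory monocytes it had -0.14 (adjusted p = 0.75) per the authors' deposited table. Itga8, a receptor chain for nephronectin, fell in TAM, with a log2 fold change of -1.75 per the authors' deposited table (Wald statistic -3.63, adjusted p = 0.0023) at a mean count of 81.1. Its values of -0.28 in inflammatory monocytes and -0.30 in granulocytes were not called (adjusted p = 0.85 and 0.78) per the authors' deposited table. Itgav and Itgb5, the 2 well-counted chains of the alphaV receptors, were not called. Their log2 fold changes per the authors' deposited table ran from -0.33 to 0.21 for Itgav and from 0.05 to 0.34 for Itgb5.

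Itgb3 had estimates of opposite sign, with log2 fold changes of 1.25 in TAM and -1.28 in granulocytes per the authors' deposited table, neither called (adjusted p = 0.082 and 0.13). Its platelet partner Itga2b had a mean count of 28.4, and the beta chains that activate latent TGF-beta, Itgb6 and Itgb8, had 0.383 and 9.18. None of these was called, and Itgb6 had no adjusted p-value in any subset.

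The immunoglobulin-type adhesion molecules held the largest called fold changes of the group. Jaml, a junctional adhesion molecule of leukocytes that binds the receptor CAR, rose in TAM and in inflammatory monocytes. Its log2 fold changes (the authors' deposited table) were 2.33 in TAM (Wald statistic 7.75, adjusted p = 1.8e-12), 1.67 among inflammatory monocytes (Wald statistic 5.40, adjusted p = 1.9e-05) and -0.02 in granulocytes (Wald statistic -0.12, adjusted p = 0.96). Its relative F11r, which encodes JAM-A, rose in TAM and in granulocytes, with log2 fold changes of 0.83 and 1.20 per the authors' deposited table (adjusted p = 0.0091 and 4.8e-04). In inflammatory monocytes F11r had 0.56 (adjusted p = 0.22) per the authors' deposited table.

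Icam1, a ligand of LFA-1 and Mac-1, rose in TAM and in granulocytes. It had a log2 fold change of 0.86 in TAM (Wald statistic 4.77, adjusted p = 3.3e-05) and of 1.14 in granulocytes (Wald statistic 5.86, adjusted p = 8.5e-07) per the authors' deposited table. The monocyte value was 0.30 (adjusted p = 0.38) per the authors' deposited table. Icam2 was not called, with log2 fold changes of 0.38, 0.22 and 0.53 in TAM, inflammatory monocytes and granulocytes per the authors' deposited table. Pecam1, which takes part in the crossing of endothelium, rose in TAM (log2 fold change 1.15, adjusted p = 0.0053, per the authors' deposited table). It was not called in inflammatory monocytes (0.84, adjusted p = 0.13) or granulocytes (-0.59, adjusted p = 0.27) per the authors' deposited table.

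Vcam1, the ligand of alpha4beta1, was lower in TAM and in granulocytes. Its log2 fold changes were -1.20 in TAM (Wald statistic -3.15, adjusted p = 0.0096), -1.30 in granulocytes (Wald statistic -3.07, adjusted p = 0.019) and -0.67 in inflammatory monocytes (adjusted p = 0.40) per the authors' deposited table. Cadm1, a homophilic adhesion molecule that also marks cross-presenting dendritic cells, was lower in all 3 subsets and had the lowest Wald statistic of the group in each. The authors' deposited table has log2 changes of -2.63 in TAM, -2.54 among inflammatory monocytes and -2.30 in granulocytes (adjusted p = 5.2e-08, 2.6e-05 and 5.7e-05). Among all genes tested in the 3 subsets, 0.689% were called lower in each.

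**Figure D4:**
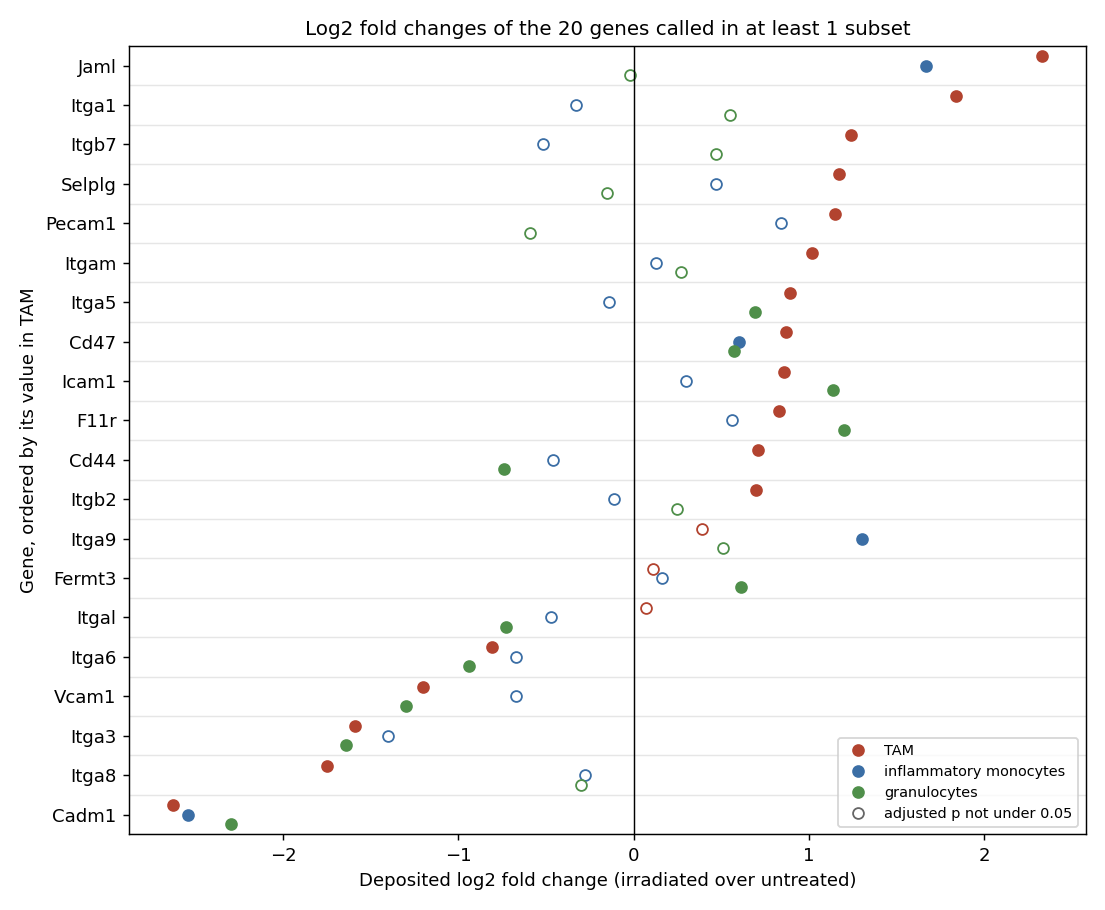
Points are the deposited log2 fold changes, irradiated over untreated, of the 20 genes called in at least 1 subset, ordered by their value in TAM. Filled points were called; Cadm1 lies between -2.63 and -2.30 in all 3 subsets, while Jaml is at 2.33 in TAM and -0.02 in granulocytes.

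Cd47, the ligand of the phagocytosis inhibitor SIRP-alpha, was the member called higher in all 3 subsets, where 1.25% of all genes tested were. Its log2 fold changes were 0.87 in TAM (Wald statistic 5.49, adjusted p = 1.2e-06), 0.60 among inflammatory monocytes (Wald statistic 3.71, adjusted p = 0.0086) and 0.57 in granulocytes (Wald statistic 3.35, adjusted p = 0.0093) per the authors' deposited table. Selplg, which encodes the selectin ligand PSGL-1, rose in TAM, with a log2 fold change of 1.17 per the authors' deposited table (Wald statistic 6.72, adjusted p = 1.5e-09). It was not called in inflammatory monocytes (0.47, adjusted p = 0.092) or granulocytes (-0.15, adjusted p = 0.62) per the authors' deposited table.

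Cd44, a hyaluronan receptor, was called in TAM and granulocytes with opposite signs. The authors' deposited table gives a log2 fold change of 0.71 in TAM (Wald statistic 3.91, adjusted p = 9.2e-04) and of -0.74 in granulocytes (Wald statistic -3.80, adjusted p = 0.0026), beside -0.46 in inflammatory monocytes (adjusted p = 0.12). A test of opposite directions took the larger p of both comparisons where the Wald signs differed and adjusted it over the 15679 genes tested in both. Cd44 did not pass it (adjusted p = 0.075, Benjamini-Hochberg). Over all genes, 0.0957% passed it for TAM and granulocytes, 0.00% for TAM and inflammatory monocytes and 0.00% for inflammatory monocytes and granulocytes. None of the members passed for any pair of subsets. At an unadjusted p under 0.05, 2 members had opposite directions in TAM and granulocytes (Itgb3 and Cd44), 2 in TAM and inflammatory monocytes (Itgb7 and Cd44) and 0 in inflammatory monocytes and granulocytes. The share of all genes at this unadjusted limit is not given here, so these counts are a description and cannot be set against the shares above. The test of opposite directions needs an effect in both subsets, so it could not detect a change in 1 subset alone. No other test of a difference between subsets was run. For the other members, a call in 1 subset without a call in another is thus not shown to be a difference between subsets.

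The integrin activators gave 1 call. Fermt3, which encodes kindlin-3, the kindlin of blood cells, rose in granulocytes, with a log2 fold change of 0.61 per the authors' deposited table (Wald statistic 5.18, adjusted p = 1.8e-05). In TAM and inflammatory monocytes it had 0.11 and 0.16 (adjusted p = 0.52 and 0.47) per the authors' deposited table. The talin gene Tln1 was not called, at 0.31, -0.13 and 0.06 in TAM, inflammatory monocytes and granulocytes per the authors' deposited table.

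Set side by side, 4 members were higher in TAM and in granulocytes, namely Cd47, Icam1, Itga5 and F11r, where 3.14% of the genes tested in both were. Another 4, Cadm1, Vcam1, Itga3 and Itga6, were lower in TAM and in granulocytes, where 3.93% of the genes tested in both were. These comparisons share no libraries, but the identical mean counts point to a joint fit, and libraries of different subsets came from the same tumours. The 16 members called in no subset were Itgax, Itgad, Itga4, Itgae, Itgb1, Itga2, Itga7, Itgb4, Itgav, Itga2b, Itgb3, Itgb5, Itgb6, Itgb8, Icam2 and Tln1. Itgad and Itgb6 among them had no adjusted p-value in any subset.

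**Figure D5:**
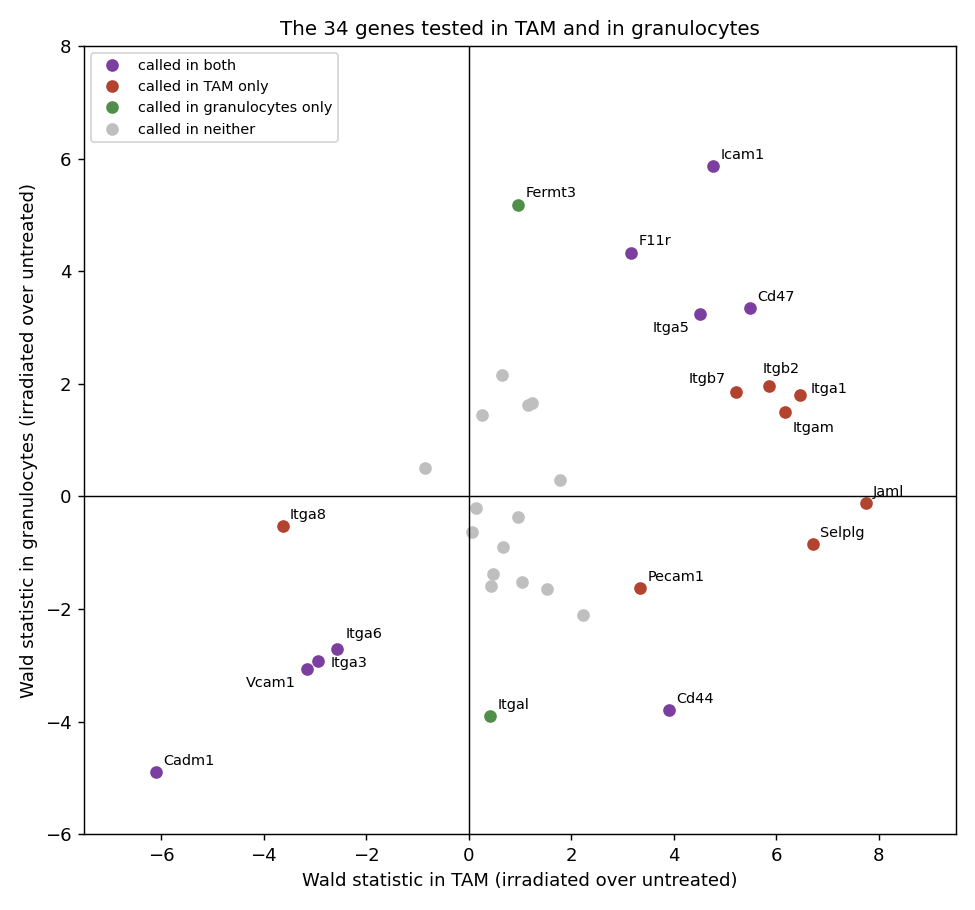
Each point is 1 of the 34 genes tested in TAM and in granulocytes, with its Wald statistic in TAM on the x axis and in granulocytes on the y axis. Cd44 is the gene called in both with opposite signs (3.91 and -3.80), and Cadm1 lies lowest on both axes.

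Related genes outside the group were followed through lists. Among all genes tested, 13.9% were higher and 12.5% lower in TAM, 4.13% and 1.77% in inflammatory monocytes, and 7.32% and 9.90% in granulocytes. The lists are short, no list was tested against these shares, and several counts lie near them, so the counts are given as a description. Of 12 tested selectins and genes for selectin ligands, 3 were higher in TAM, none was called in inflammatory monocytes and 1 was lower in granulocytes. Cd24a (log2 fold change 2.20) and the sialyltransferase gene St3gal4 (0.85) were among those higher in TAM, and Tpst2, whose product sulphates tyrosines as PSGL-1 needs, had -0.78 in granulocytes per the authors' deposited table.

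Of 16 further genes listed under integrin activation, 3 were higher in TAM, 2 were lower in inflammatory monocytes, and 2 were higher and 2 lower in granulocytes. The list does not separate activating from restraining genes, so its counts give no direction of activation. Cytip in inflammatory monocytes (log2 fold change -0.71) and Sla in granulocytes (1.01) were among the calls per the authors' deposited table (adjusted p = 0.019 and 0.0023). Rasgrp2, the exchange factor that loads Rap1 for integrin activation in platelets and neutrophils, had 0.69 in TAM and -0.60 in granulocytes (adjusted p = 0.0022 and 0.023) as log2 fold changes per the authors' deposited table. Cyth1, which encodes cytohesin-1, a binder of the beta2 tail, had 1.07 and -0.77 in the same order (adjusted p = 2.2e-07 and 0.0019) per the authors' deposited table. Genes listed under integrin inhibition and recycling were higher in 2 of 14 cases in TAM, 0 of 13 among inflammatory monocytes and 3 of 13 in granulocytes, and none was lower. Among them, Sharpin, whose product holds integrins inactive, had a log2 fold change of 0.41 in granulocytes (adjusted p = 0.0070) per the authors' deposited table. The higher ones include Tnip1, whose place in a list of integrin genes was not tested. It had log2 fold changes of 1.05 in TAM and 1.20 in granulocytes (adjusted p = 0.013 and 0.017) per the authors' deposited table.

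Of 31 tested genes of focal adhesion and signalling from integrins, 7 were higher and 3 lower in TAM. The kinase genes Fgr (log2 fold change 0.93), Src (1.55) and Syk (0.77), which act below leukocyte integrins, were among the higher ones per the authors' deposited table (adjusted p = 1.9e-09, 2.3e-05 and 1.3e-04). In inflammatory monocytes 1 of 30 was higher, which was Src (0.98, adjusted p = 0.046, per the authors' deposited table). In granulocytes 5 of 30 were higher, with Src at 1.14 per the authors' deposited table, and 4 were lower, with the parvin gene Parva at -2.14.

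Of the other immunoglobulin-type adhesion genes, 4 of 22 were higher and 1 lower in TAM, 2 of 18 were higher in inflammatory monocytes, and 3 of 20 were higher and 1 lower in granulocytes. Siglec1, the sialic acid receptor of macrophages, had log2 fold changes of 1.94 in inflammatory monocytes and 1.15 in granulocytes per the authors' deposited table (adjusted p = 7.7e-07 and 0.0072). Nectin4 was called in all subsets, at 0.86 in TAM, 0.96 among inflammatory monocytes and 1.31 in granulocytes per the authors' deposited table (adjusted p = 0.011, 0.021 and 3.5e-04). Of 2 tested integrin chains outside the group, 0 were called in TAM, 1 was higher in inflammatory monocytes and 0 were called in granulocytes. The called one was Itgb2l, a gene related to Itgb2, with a log2 fold change of 1.74 (adjusted p = 0.0015) per the authors' deposited table.

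Of 18 tested ligands in matrix and plasma, 2 were higher and 1 lower in TAM, and 1 was higher and 2 were lower in granulocytes. None of 16 was called in inflammatory monocytes. Thbs1, which encodes thrombospondin-1, a ligand of CD47 and CD36 with the highest mean count named here (249044), had log2 fold changes of 1.74 in TAM, -0.58 among inflammatory monocytes and -0.90 in granulocytes per the authors' deposited table (adjusted p = 3.2e-09, 0.19 and 0.015). Among 16 partners of CD47 and CD44, 5 were higher and 3 lower in TAM, 1 was higher and 1 lower in inflammatory monocytes, and 3 were lower in granulocytes. Sirpa, the receptor of CD47, had 0.48 in TAM and 0.50 in inflammatory monocytes (adjusted p = 8.4e-04 and 0.0042) as log2 fold changes per the authors' deposited table.

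Some markers of other cell types and some genes of the sort itself were called in the same comparisons. Of all genes tested, 13.9% were higher and 12.5% lower in TAM, 4.13% and 1.77% in inflammatory monocytes, and 7.32% and 9.90% in granulocytes. No marker list here or below was tested against these shares, and some counts lie near them. Ptprc, which encodes the sort marker CD45, had log2 fold changes of 0.42 in TAM and -0.43 in granulocytes per the authors' deposited table (adjusted p = 0.0073 and 0.015), the same signs as Cd44. Other genes of the gates moved in part. Ly6c2 encodes a Ly6C protein, which the TAM gate selects against and the granulocyte gate requires. It had log2 fold changes of 1.96 in TAM and 1.82 in granulocytes (adjusted p = 4.1e-09 and 6.1e-06) per the authors' deposited table. Ly6c1, another Ly6C gene, had -0.16 in TAM, -0.12 among inflammatory monocytes and -0.62 in granulocytes per the authors' deposited table. It was not called in any subset (adjusted p = 0.92, 0.90 and 0.48). Ly6g had 0.95 in inflammatory monocytes, which were sorted as Ly6G- (adjusted p = 0.045, per the authors' deposited table). Adgre1 had 0.74 in inflammatory monocytes and 0.43 in granulocytes per the authors' deposited table, the second value just under the threshold (adjusted p = 3.2e-04 and 0.050). Beside the higher Itgam, Itgb2, Selplg and Jaml in TAM, 5 of 10 classical monocyte markers were higher there and none was lower, Ly6c2 among them. Of 15 neutrophil markers, 10 were called higher in TAM by their Wald statistic and none lower, with Csf3r at a log2 fold change of 1.36 per the authors' deposited table, although the list's median log2 fold change was -0.05. The deposited folds and Wald statistics of this list differ in sign for some genes. In TAM, Ngp had a log2 fold change of -0.59 beside a Wald statistic of 9.20, Camp -0.77 beside 8.66 and S100a9 -1.24 beside 4.16, per the authors' deposited table. The direction of this list in TAM is therefore uncertain. In inflammatory monocytes 8 of 15 neutrophil markers and 8 of 12 macrophage markers were higher, and in granulocytes 1 of 15 and 6 of 12. Macrophage markers were higher in 4 of 12 cases in TAM, and classical monocyte markers in 0 of 10 in inflammatory monocytes and 3 of 10 in granulocytes; none of these markers was lower. Eosinophil markers were higher in 4 of 6 cases in TAM, 2 of 6 among inflammatory monocytes and 1 of 6 in granulocytes, and none was lower.

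Beside the lower Cadm1, 5 of 12 dendritic cell markers were lower in TAM and 1 was higher. Batf3 had a log2 fold change of -1.25 and Xcr1 of -1.28 per the authors' deposited table. The higher one was Cd24a, at 2.20 in TAM per the authors' deposited table (adjusted p = 5.9e-05). None of 11 dendritic cell markers was called in inflammatory monocytes and none of 12 in granulocytes, where Cadm1 was called lower as well. Beside the lower Vcam1 and Itga3, fibroblast markers were lower in 4 of 10 cases in TAM, 0 of 9 among inflammatory monocytes and 4 of 9 in granulocytes, and none was higher. Col1a1 had -1.77 in TAM and -1.98 in granulocytes as log2 fold changes per the authors' deposited table (adjusted p = 0.0071 and 0.0066). Markers of T and NK cells were lower in 2 of 14 cases in TAM, 0 of 14 among inflammatory monocytes and 3 of 14 in granulocytes, and none was higher. B and plasma cell markers were higher in 1 of 9 cases and lower in 1 in TAM, higher in 1 of 8 in inflammatory monocytes and higher in 1 of 9 in granulocytes.

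Endothelial markers, which include Pecam1, were higher in 2 of 9 cases in TAM, 0 of 7 among inflammatory monocytes and 1 of 8 in granulocytes, with 1 lower in granulocytes. Platelet markers, which include Itga2b, were higher in 3 of 7 cases in TAM, 1 of 4 among inflammatory monocytes and 1 of 6 in granulocytes. Epithelial and tumour markers, which include Itgb4 and Itgb6, were higher in 2 of 11 cases in TAM and in 0 of 11 in either of the other two subsets. Levels of these markers per group were not analysed here, and their part in the results for the adhesion genes was not tested.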

How the data were processed

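Per the submitters' processing notes, the tools were R 4.0.2, DESeq2 1.28.1, the aligner STAR 2.7.6a and the read trimmer fastp 0.20.1, and the build was mm39 (GRCm39). How reads were counted, with which strand setting and gene models, is not stated there. Libraries were Nextera XT preparations of picogram amounts of cDNA, per the labels' protocols. The authors deposited tables of 3 comparisons. The mean normalised counts, deposited by the authors, form an average signal across libraries. It is equal in each table for all 55453 genes. Whether the authors' deposited log2 fold changes were shrunken is not stated. Their sign in 16 called TAM genes, 3 of inflammatory monocytes and 0 of granulocytes is other than that of the Wald statistic, a score deposited by the authors, and the reason is not known. No called member is among them. The deposited p-values lie within 0.0014 log10 units of the two-sided normal p for this score, for p over 1e-10. Adjusted p-values are absent for genes of low mean, under 2.50 in TAM, 6.33 among inflammatory monocytes and 3.96 in granulocytes.

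Members were matched by symbol and counted where the authors' adjusted p was under 0.05. Members, lists and tests were chosen with earlier results of these data known. The lists were 10 of related adhesion genes and 11 of cell type markers. All members are named. From each list, genes were named among up to 4 called ones with the smallest p, or, with none called, 2 with the highest mean; genes of the sort gates and genes that overlap a member were named after their values were seen. Some genes of the lists are not reported here. Opposite directions were tested with the larger of both p-values and Benjamini-Hochberg adjustment, in place of the interaction test first planned, which needs standard errors. The steps were tested on simulated data. Alternatives were other thresholds, count minimums, scalings and adjustments. Whether replicates were separate animals is given only as tumour numbers, so p-values measure the spread between libraries. Python 3.11.15, pandas 2.3.3, numpy 2.4.6, scipy 1.17.1 and matplotlib 3.10.9 were used.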

Additional observations from a re-analysis of the deposited data

How the results depend on the processing

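Of 279 values of called members recomputed under other settings, 224 kept their call and direction, 55 lost the call and 0 changed sign. Only re-centring and taking the direction from the log2 fold change could change a sign. Neither an unadjusted p nor the direction from the log2 fold change could lose a call. Part of these totals was thus fixed in advance. Dividing Wald statistics by their robust SD (TAM 2.72, inflammatory monocytes 1.56, granulocytes 2.09) accounted for 32 of the lost calls. Under it 0 members were higher and 0 lower in every subset, and in TAM and granulocytes 0 of all genes were called. At an unadjusted p under 0.05 that scaling gave 6 higher and 1 lower member in TAM, 3 and 1 in inflammatory monocytes, and 3 and 1 in granulocytes. Counts of all genes for that scaling at an unadjusted p are not given here. A minimum absolute log2 fold change of 1 left 6 of 12 higher members in TAM, and 2 higher and 3 lower in granulocytes. Over all genes it left 903 of 2340 higher in TAM. In granulocytes it left 413 of 1147 higher and 745 of 1552 lower over all genes. A threshold of 0.01 left 3 lower members in TAM and 3 in granulocytes, beside 1423 and 849 lower among all genes. A mean count of at least 1000, chosen after seeing the data, left 1 lower member in TAM, 0 among inflammatory monocytes (3 at an unadjusted p under 0.05) and 3 in granulocytes, since it tests fewer genes. Over all genes it left 622 lower in TAM, 144 among inflammatory monocytes and 615 in granulocytes. An unadjusted p under 0.05 gave 6 higher and 6 lower members in inflammatory monocytes, beside 1897 higher and 1201 lower among all genes. The cause was not tested for the other shifts. Under the other alternatives, counts of members stayed within 1.5 times those reported. Re-centring on the median gene changed no call of a member, though over all genes in TAM it gave 1989 higher and 2460 lower in place of 2340 and 2108. No member passed the test of opposite directions under any alternative run for it. No paired analysis was possible because irradiated and untreated libraries of a subset carry different tumour numbers and the tables hold no values of single libraries. For the same reason no library could be left out in turn, and read depth is unknown.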

Other observations

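Tetraspanins bind adhesion molecules and sheddases cut them. Among all genes tested, 13.9% were higher and 12.5% lower in TAM, and 7.32% and 9.90% in granulocytes. With 9 and 8 genes tested, the counts of these lists are a description, and some lie at those shares. Of 9 tetraspanins that bind integrins, 4 were higher and 2 lower in TAM, 0 were called in inflammatory monocytes and 2 were lower in granulocytes. The authors' deposited table has log2 fold changes in TAM of 1.76 for the leukocyte tetraspanin gene Cd37, 0.70 for Cd53 and -1.39 for Cd81 (adjusted p = 4.4e-07, 2.6e-05 and 3.7e-07). In granulocytes Cd53 had -0.51 and Cd81 -0.88 per the authors' deposited table (adjusted p = 0.012 and 0.0098).

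Of 8 sheddase genes tested, 4 were higher and 1 lower in TAM, 0 were called in inflammatory monocytes, and 1 was higher and 2 lower in granulocytes. Adam8, a myeloid metalloprotease gene, had a log2 fold change of 0.93 in TAM and -0.69 in granulocytes per the authors' deposited table (adjusted p = 1.6e-04 and 0.020). Adam9 had 0.51 in TAM and 0.55 in granulocytes per the authors' deposited table (adjusted p = 3.8e-04 and 7.5e-04).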
